A study of Mus musculus with 11 samples.

Results

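Mouse lungs that had received aspirin were compared with lungs that had not, whatever else the animals received, and 158 autosomal genes parted these arrays completely. Expression in lung tissue of 129S1 mice, an inbred strain, was measured on 11 Affymetrix gene arrays, 1 per sample. Per the labels' protocols, gavage was done on 5 days of each week over 2 months; the doses were 4 mg/kg of aspirin and 1 mg/kg of triptolide. The aspirin-exposed arrays are 3 of aspirin alone and 3 of aspirin with triptolide, called the combination here. The unexposed arrays are 2 untreated controls and 3 of triptolide alone. Controls are untreated by their titles, but the treatment protocol has a PBS group instead, so it is not known here if they received buffer. They give no age or sex for any animal. They do not say whether the replicates of a group came from separate animals either, so p-values measure only the spread between these samples, which may be technical. A gene was taken as a member when its 6 exposed values all lay above, or all below, its 5 unexposed values. The rule was applied to 19103 autosomal genes out of 19938 genes measured. Members made up 0.827% of the autosomal genes: 36 lay higher with aspirin (0.188%) and 122 lay lower (0.639%).

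Aspirin acetylates the cyclooxygenases, the enzymes that turn arachidonic acid into prostaglandins and thromboxane. In the lung these lipids act on airway tone, vessels and inflammation. Triptolide, a diterpenoid of the thunder god vine, binds a subunit of the general transcription factor TFIIH and lowers transcription. The alveoli, where gas is exchanged, are lined by thin type 1 cells and by type 2 cells, which make surfactant and secrete immune proteins.

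The arrays differed in ways other than the drugs. On the first principal component (45.5% of the variance) combination 1 had a score of 60.2, and all other arrays lay between -15.0 and 6.8. Xist, expressed from the inactive X chromosome of females, read 11.98 to 12.32 on both control arrays and triptolide 1 and 12.26 to 12.80 on the combination arrays. It read 6.61 to 7.0 on the aspirin arrays and triptolide 3, and 9.75 on triptolide 2, whose Y-linked genes (Eif2s3y, Uty and Kdm5d) had a mean level of 9.36. Exposed and unexposed arrays thus each held both kinds of array, but aspirin alone against control and the combination against triptolide alone each differed in this respect, in whole or in part. With the mean level of the Y-linked genes as a covariate, the aspirin differences of the members were 0.97 to 1.06 times those reported. These genes had similar means on exposed and unexposed arrays (Eif2s3y 7.49 and 7.22, Uty 7.54 and 7.18, Kdm5d 7.80 and 7.65). Such a covariate could thus change the differences little, and the part of sex in the members was not tested. The markers of lung were high throughout, with the surfactant gene Sftpc at 13.62 to 14.27 and the club cell gene Scgb1a1 at 13.75 to 14.08.

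The start regions of 4 members are printed because these genes had the widest gaps between the groups in their direction (Serpinb6b, Lrp2 and Ctsg) or the highest level (Cxcl15). Each is 250 bases upstream of a transcript start from RefSeq (GRCm38.p6), written 5′ to 3′ on the gene's strand, and the capitals mark the motif matches found by script. Serpinb6b is at chr13:32965011-32965260 on the plus strand, with 1 GC box; it lies inside the gene's full annotated span, so its start is not the outermost one. Lrp2 is at chr2:69586030-69586279 on the minus strand, with CAAGTG, a core bound by NKX2-1 type factors, and a GC box. Cxcl15 is at chr5:90794284-90794533 on the plus strand, with a TATA box 27 bases before the start. Ctsg is at chr14:56102575-56102824 on the minus strand, with TTTATA 237 bases before the start. This is a match of the letters TATAAA on the other strand and is not taken as a TATA box of this start.
Serpinb6b: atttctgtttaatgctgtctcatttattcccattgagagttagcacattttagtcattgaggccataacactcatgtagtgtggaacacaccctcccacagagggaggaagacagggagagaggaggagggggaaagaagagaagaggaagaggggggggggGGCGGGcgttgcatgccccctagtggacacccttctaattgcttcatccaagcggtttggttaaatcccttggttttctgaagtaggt
Lrp2: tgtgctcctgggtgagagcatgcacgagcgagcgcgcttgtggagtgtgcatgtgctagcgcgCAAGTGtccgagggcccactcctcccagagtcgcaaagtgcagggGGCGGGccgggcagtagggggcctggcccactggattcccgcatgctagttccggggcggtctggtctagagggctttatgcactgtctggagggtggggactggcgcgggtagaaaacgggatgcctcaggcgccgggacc
Cxcl15: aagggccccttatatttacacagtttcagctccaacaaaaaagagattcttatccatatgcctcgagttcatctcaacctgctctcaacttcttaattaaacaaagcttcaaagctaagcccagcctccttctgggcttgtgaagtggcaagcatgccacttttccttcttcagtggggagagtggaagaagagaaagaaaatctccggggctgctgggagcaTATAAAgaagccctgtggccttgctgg
Ctsg: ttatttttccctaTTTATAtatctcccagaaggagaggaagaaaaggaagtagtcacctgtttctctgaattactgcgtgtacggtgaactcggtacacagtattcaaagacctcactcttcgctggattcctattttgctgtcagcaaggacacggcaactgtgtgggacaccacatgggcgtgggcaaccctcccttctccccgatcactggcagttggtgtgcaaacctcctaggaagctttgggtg

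The motifs were chosen after the members were known and were searched on both strands of the 250 bases upstream of each start, which RefSeq gave for 30 higher and 96 lower members and for 14958 of all autosomal genes. A gene with several starts was counted once if any of its windows held the motif, and none of the motifs contains another. GGCGGG, the GC box, was found in 55 lower members (57.3%), 13 higher members (43.3%) and 48.8% of all genes. TATAAA was found in 6 higher members (20%), 10 lower members (10.4%) and 12.5% of all. CCAAT was found in 16 higher members (53.3%), 35 lower members (36.5%) and 38.5% of all. CAAGTG was found in 5 higher members (16.7%), 15 lower members (15.6%) and 12.4% of all, and CACGTG in 3 (10%), 9 (9.38%) and 8.14%. These shares describe letters in the windows and were not tested.

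**Figure D1:**
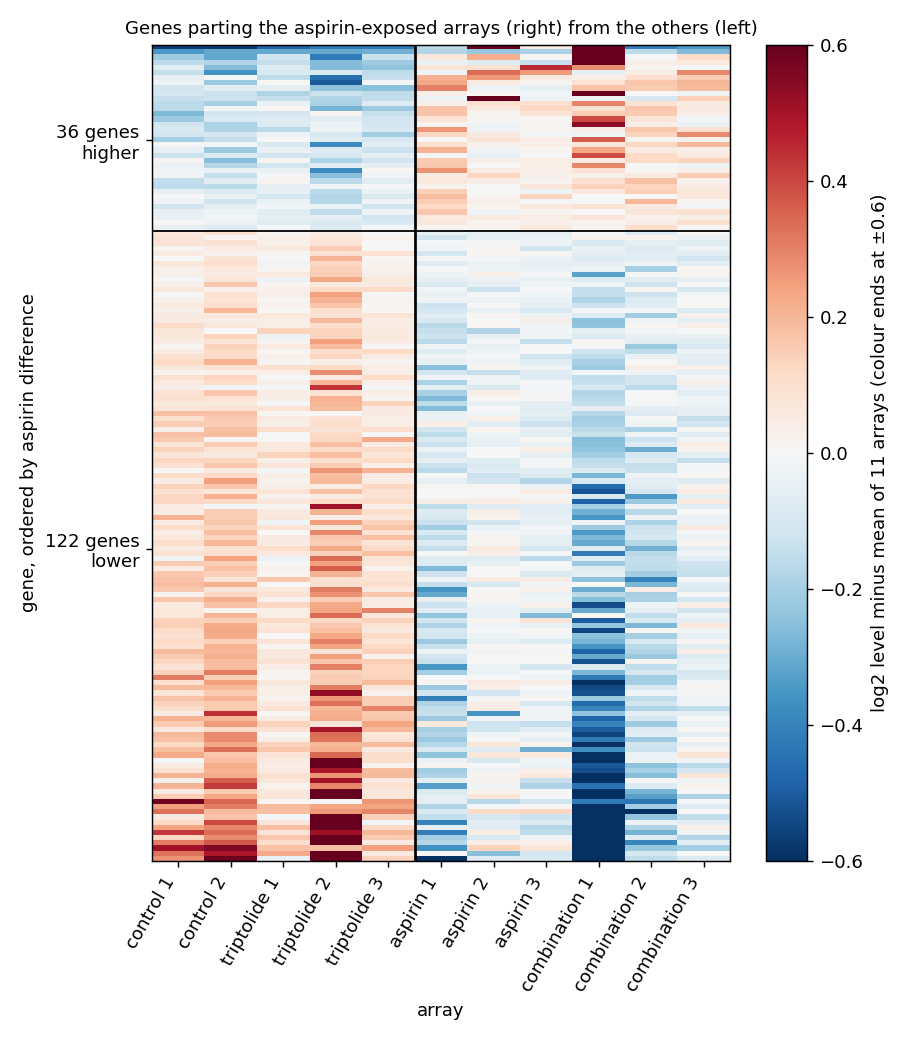
Colour shows the log2 level of each of the 158 parting genes minus its mean over the 11 arrays, with arrays in columns (unexposed left of the black line, aspirin-exposed right) and genes in rows ordered by their aspirin difference. The rule makes every row change side at the line; the strongest colours are on combination 1 for both sets and on triptolide 2 on the other side.

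The members that lay lower were well expressed genes, while those that lay higher were mostly dim. On the log2 scale of the deposited values, where 1 unit is a 2-fold difference, the lower members had a median level of 9.71 (7.27 to 13.12) and the higher members one of 7.74 (4.68 to 10.19). The median of all autosomal genes was 8.61. A mean level over 9 was found for 94 of the 122 lower members (77.0%), for 4 of the 36 higher ones (11.1%) and for 40.6% of autosomal genes. The higher members include olfactory and vomeronasal receptor genes such as Olfr119 and Vmn1r48, and 7 of the 36 are of the clone, predicted or receptor kind that was not described further. Members lay on every autosome, at 0.439% of the genes of chromosome 5 up to 1.09% of those of chromosomes 6 and 13.

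The differences were small. The aspirin difference is the mean shift with aspirin in a limma model that holds triptolide exposure as a second factor over all 11 arrays, and it is given as log2 ± SE. It ran in size from 0.08 to 0.929 among the members, with a median of 0.206 for the higher and -0.221 for the lower ones, beside 0.012 for all autosomal genes. It exceeded 0.3 in 39 members (6 higher, 33 lower) and 0.5 in 11 (2 higher, 9 lower). The gap that parts the groups was a median of 0.0130 for the higher and 0.0151 for the lower members, and it reached 0.1 in 3 genes, Serpinb6b, Lrp2 and Ctsg. No gene passed the aspirin effect at an adjusted p under 0.05 (0% of 19938 genes, limma with Benjamini-Hochberg adjustment), the smallest adjusted p being 0.386, while 2384 genes (12%) had an unadjusted p under 0.05, 560 higher (2.81%) and 1824 lower (9.15%). Adjusted p-values of the members ran from 0.386 to 0.522. Of the members, 136 had an unadjusted p under 0.05 (26 higher, 110 lower), but this comes from the contrast that chose them and is no support for them. In simulated data with 50 changed genes per size, the model recovered 6 genes of log2 0.25, 33 of 0.5 and 49 of 1, with 4 false calls. The simulated noise was normal and independent between genes and arrays. It held no array that lay apart as combination 1 does, so the recovery on the real arrays may differ.

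As a yardstick of the same size, the 6 triptolide-exposed arrays were set against the other 5. They were parted by 231 autosomal genes (1.21%), 92 higher (0.482%) and 139 lower (0.728%). The sets cannot share a gene, because a gene that parts 1 split completely cannot part the other. Of the members, 5 had an unadjusted p under 0.05 for triptolide and 0 an adjusted one, while 9.59% of all genes had an unadjusted p under 0.05; the aspirin split limits how far the triptolide groups of a member can differ, so nothing is read from the lower count. Over all genes, 1 passed for triptolide (0.00502%), Gja4, a gap junction gene of arteries, at -0.72 ± 0.08 (limma, adjusted p = 0.0346). The fitted triptolide difference was below 0 in 97 of the 122 lower members and above 0 in 24 of the 36 higher ones, while it was below 0 in 10363 of 19103 autosomal genes. These counts use the values that chose the members. Combination 1, which had both drugs, was the most extreme array in 89 members (14 higher, 75 lower) and moves both differences the same way. Nothing is read from these counts either.

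Among the lower members, 2 serpins of chromosome 13 stood out by size or gap. Serpinb6b, an inhibitor of serine proteases inside cells, had the widest gap of all autosomal genes. Serpinb6b read 11.54 and 11.60 in the controls and 11.48, 11.53 and 11.53 with triptolide, against 11.11, 11.28 and 11.30 with aspirin alone and 10.53, 11.09 and 11.22 with the combination. The unexposed arrays lay close together, the exposed ones were spread out with combination 1 lowest, and the gap to the highest exposed array was 0.183 (difference -0.47 ± 0.11). Serpinb9, the inhibitor of granzyme B, read 10.86 and 10.91 in the controls, 10.53, 10.53 and 10.60 with triptolide, 9.99, 10.49 and 10.43 with aspirin alone and 9.29, 10.13 and 10.15 with the combination. Its controls were the highest arrays and the combination arrays lay low, with an aspirin difference of -0.65 ± 0.15 and a triptolide difference of -0.40. The other 11 serpin B genes measured on chromosome 13 had differences between -0.30 and 0.08, none with an unadjusted p under 0.05. Near-identical copies in this family can share probes, so the values of single serpins are uncertain to that extent.

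The lower members held 2 chemokines and 2 genes of complement, which are set together here after the members were known. Cxcl15, a chemokine known as lungkine, was the brightest member. Cxcl15 read 13.36 and 13.41 in the controls and 13.30, 13.79 and 13.24 with triptolide, against 13.07, 13.06 and 12.95 with aspirin alone and 12.06, 12.94 and 13.16 with the combination. Its gap was 0.089 and its difference -0.57 ± 0.18, -0.36 without triptolide and -0.73 with it. Hc, which encodes complement C5, read 11.98 and 12.14 in the controls, 11.88, 12.34 and 11.71 with triptolide, 11.65, 11.40 and 11.55 with aspirin alone and 10.35, 11.55 and 11.65 with the combination. Combination 1 lay more than 1 log2 unit under the next array, and the difference of -0.68 ± 0.21 was -0.45 without that array. Cd59a, a membrane inhibitor of the complement attack complex, read 10.06 and 9.97 in the controls, 9.71, 10.14 and 9.83 with triptolide, 9.22, 9.68 and 9.48 with aspirin alone and 8.92, 9.35 and 9.61 with the combination. Aspirin arrays and combination arrays lay similarly low, and the difference of -0.58 ± 0.13 was -0.56 without and -0.60 with triptolide. Cxcl16, a membrane-bound chemokine, had a smaller difference of -0.34 ± 0.11, with combination 1 at 9.51 and the other exposed arrays at 9.98 to 10.22, all under the lowest unexposed array at 10.27.

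**Figure D2:**
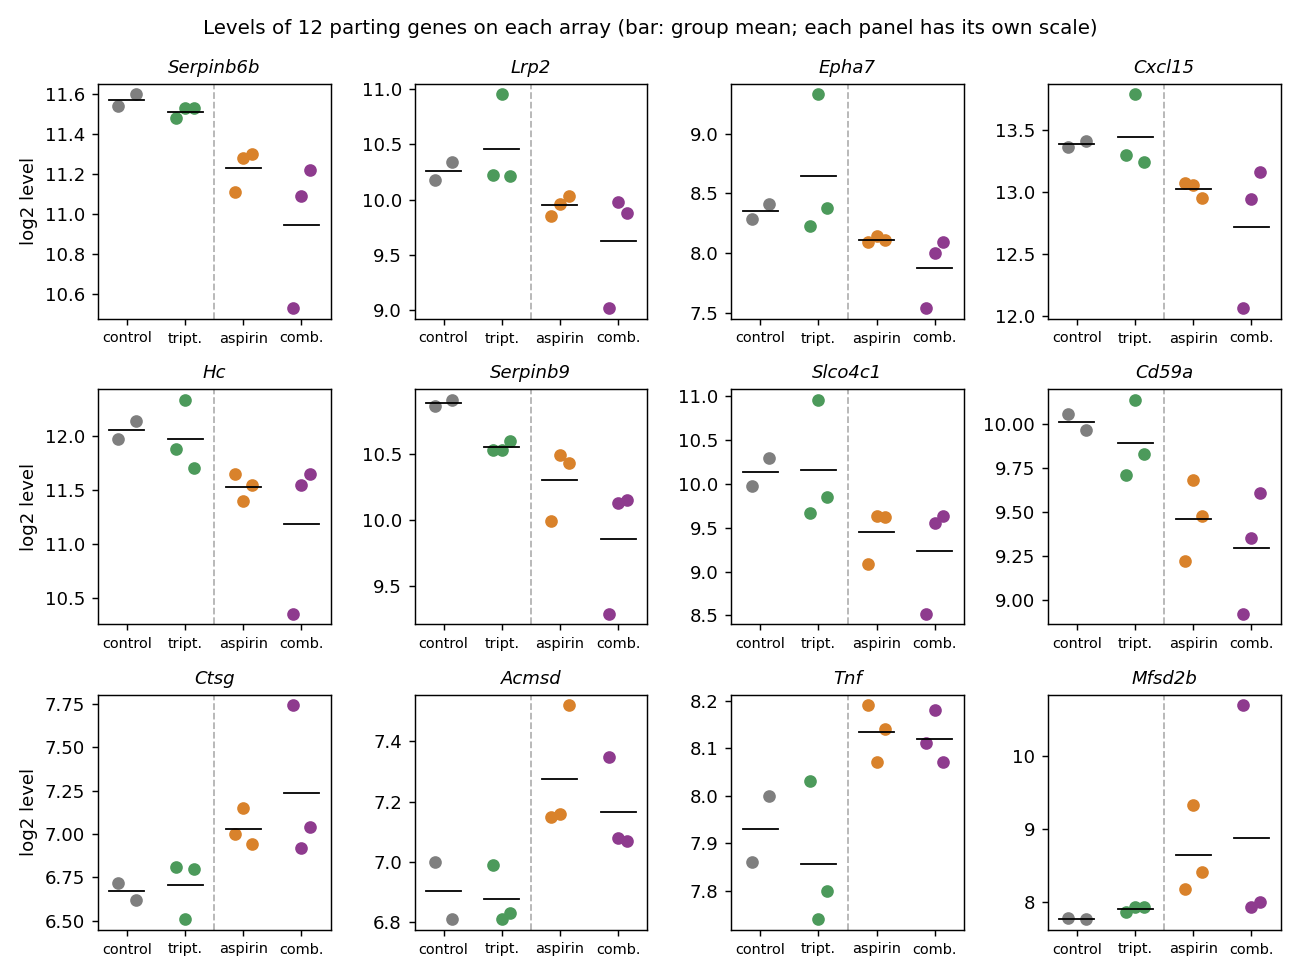
Each panel plots the log2 level of 1 gene on the 11 arrays, with the group mean as a bar; unexposed groups stand left of the dashed line and aspirin-exposed groups right of it, and each panel has its own scale. No exposed point overlaps an unexposed one, while combination 1 (Mfsd2b at 10.70, Lrp2 at 9.02) and triptolide 2 (Epha7 at 9.33) are often far from their groups.

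The remaining large differences of the lower members were of genes with varied roles. Lrp2, or megalin, is an endocytic receptor of absorbing epithelia. Lrp2 read 10.18 and 10.34 in the controls and 10.22, 10.95 and 10.21 with triptolide, against 9.85, 9.96 and 10.03 with aspirin alone and 9.02, 9.98 and 9.88 with the combination. Its gap of 0.150 lay between control 1 and aspirin 3, and its difference of -0.61 ± 0.20 was -0.31 without and -0.84 with triptolide. Slco4c1, an organic anion transporter, had the largest difference of the lower members at -0.82 ± 0.26. It read 9.98 and 10.30 in the controls, 9.67, 10.96 and 9.85 with triptolide, 9.09, 9.64 and 9.62 with aspirin alone and 8.52, 9.56 and 9.63 with the combination. Triptolide 1 and aspirin 2 came within 0.0333 of each other, while triptolide 2 and combination 1 lay far out on either side. Epha7, an ephrin receptor, read 8.29 and 8.41 in the controls, 8.23, 9.33 and 8.38 with triptolide, 8.09, 8.14 and 8.11 with aspirin alone and 7.54, 8.0 and 8.09 with the combination. Without triptolide 2 its difference went from -0.53 ± 0.19 to -0.33. Lgi3, a secreted leucine-rich repeat protein, and Snx7, a sorting nexin, were at -0.63 ± 0.19 and -0.55 ± 0.19, both with narrow gaps of 0.0090 and 0.0240.

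The smallest p among the members belonged to Sh3bp5, a mitochondrial anchor of the kinase JNK, at -0.47 ± 0.10 (limma, unadjusted p = 0.000418, adjusted p = 0.386). It read 10.85 and 10.61 in the controls and 10.28, 10.27 and 10.53 with triptolide, against 10.21, 10.10 and 10.15 with aspirin alone and 9.84, 9.83 and 10.26 with the combination. The controls were highest, and combination 3 came within 0.0087 of triptolide 2. Acot2, a mitochondrial thioesterase of fatty acyl-CoA, read 10.72 and 10.58 in the controls and 10.57 to 10.68 with triptolide, against 10.30 to 10.52 with aspirin alone and 9.78, 9.59 and 10.39 with the combination. Combination 1 and 2 lay lowest, and the difference was -0.49 ± 0.14. Of the 10 genes with the smallest unadjusted p over all genes, 6 are on the X chromosome and could not be members. Genes on X or Y were only 748 of the 19938 tested, and the part of sex in these 6 was not tested. Of the 4 autosomal genes among the 10, Sh3bp5 was a member.

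Lower members named for their gap or for a gene list had smaller differences. Gnai3, an inhibitory G protein subunit, was at -0.26 ± 0.07, with unexposed arrays at 10.29 to 10.52 and exposed arrays at 9.94 to 10.23. Smad2, which carries the TGF-beta signal to the nucleus, was at -0.26 ± 0.07, with unexposed arrays at 9.43 to 9.65 and exposed arrays at 9.06 to 9.43, parted by only 0.0028. Dusp4, a phosphatase that switches off MAP kinases, was at -0.21 ± 0.09, and at -0.12 without triptolide 2, which read 8.99 against 8.47 to 8.53 on the other unexposed arrays. Eps8, an actin regulator under the EGF receptor, was at -0.27 ± 0.09. Ncbp2, a subunit of the complex that binds the cap of messenger RNA, was at -0.20 ± 0.06. Psmb10, a subunit of the immunoproteasome, was at -0.17 ± 0.05. Gabarap, which conjugates to autophagosome membranes, was at -0.12 ± 0.07, and at -0.06 without combination 1, which read 12.56 against 12.85 to 12.92 on the other exposed arrays.

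A further group of lower members serves the secretory pathway; it was put together after the members were known and has no test. Mgat2, which builds complex N-glycans in the Golgi, was at -0.27 ± 0.07, with unexposed arrays at 9.69 to 9.95 and exposed arrays at 9.30 to 9.62. Bet1, a SNARE of transport from the endoplasmic reticulum to the Golgi, was at -0.39 ± 0.10 and had the smallest gap of all members at 4e-05. Calu, a calcium-binding protein of the endoplasmic reticulum, was at -0.32 ± 0.09, with unexposed arrays at 10.74 to 10.91 and exposed arrays at 10.21 to 10.68. Tgoln1, a protein of the trans-Golgi network, was at -0.30 ± 0.12. Rab1a, a GTPase of the same transport step as Bet1, and Kdelr1, which returns proteins to the endoplasmic reticulum, were at -0.20 ± 0.08 and -0.19 ± 0.06, and Rab1a was at -0.12 without combination 1. Ppib, a prolyl isomerase of the endoplasmic reticulum, was at -0.18 ± 0.06, Rpn2, a subunit of the oligosaccharyl transferase, at -0.13 ± 0.06 and Derl1, of the degradation pathway there, at -0.08 ± 0.05. The 25 genes of a list of endoplasmic reticulum stress, which holds none of the members, had a median difference of -0.05 with 11 above and 14 below 0. Eif2ak3 and Atf6b, also of the response to such stress but outside that list, were lower members at -0.14 ± 0.06 and -0.10 ± 0.05.

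Tnf, the inflammatory cytokine, was among the higher members. Tnf read 7.86 and 8.0 in the controls and 8.03, 7.74 and 7.80 with triptolide, against 8.19, 8.07 and 8.14 with aspirin alone and 8.11, 8.18 and 8.07 with the combination. No array stood apart, the gap was 0.0415 and the difference 0.24 ± 0.07, 0.20 without and 0.27 with triptolide. When each array was centred on its median or the arrays were quantile normalized, Tnf kept this direction but parted the groups under neither scaling. Adam17, the protease that releases TNF from the cell surface, was a lower member at -0.35 ± 0.08, named here after its values were seen. Its unexposed arrays lay at 10.55 to 10.83 and its exposed arrays at 10.13 to 10.51. Of 27 measured NF-kB targets and feedback inhibitors, of which Tnf alone parted the arrays, 10 lay above and 17 below 0 at a median of -0.04, and 0 passed.

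Ctsg, a serine protease of myeloid granules, had the widest gap of the higher members at 0.113. Ctsg read 6.72 and 6.62 in the controls and 6.81, 6.51 and 6.80 with triptolide, against 7.0, 7.15 and 6.94 with aspirin alone and 7.74, 6.92 and 7.04 with the combination. Combination 1 was highest, and the difference of 0.45 ± 0.13 was 0.32 without it. The level of 18 neutrophil markers, as the mean over the genes of each one's level minus its mean over the arrays, was 1.95 on aspirin 2 and -0.46 to 0.27 on the other exposed arrays, and -0.41 to 0.23 on the unexposed arrays. Its groups overlapped, and the part of these cells in the Ctsg result was not tested. Acmsd, an enzyme of tryptophan breakdown, read 7.0 and 6.81 in the controls, 6.99, 6.81 and 6.83 with triptolide, 7.15, 7.16 and 7.52 with aspirin alone and 7.35, 7.08 and 7.07 with the combination. Aspirin 3 and combination 1 were highest, and the difference was 0.33 ± 0.09. Defb4, a beta-defensin, and Skint3, of a family of membrane proteins of skin and thymus, were dim, with means of 5.89 and 4.68, and differed by 0.28 ± 0.07 and 0.27 ± 0.08. U90926 differed by 0.25 ± 0.06, and Fbxo34, an F-box protein, by 0.21 ± 0.07.

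The size of several of the largest higher members rested on combination 1. Mfsd2b, the exporter of sphingosine-1-phosphate from red cells and platelets, read 7.78 and 7.77 in the controls, 7.87, 7.93 and 7.93 with triptolide, 8.19, 9.33 and 8.41 with aspirin alone and 10.70, 7.94 and 8.01 with the combination. Its difference of 0.93 ± 0.43 was 0.47 without combination 1, and combination 2 lay 0.0140 over the nearest unexposed array. Slc25a21, a mitochondrial carrier, read 9.37 on combination 1, 6.53 to 6.64 on the other exposed arrays and 6.45 to 6.51 on the unexposed ones, and its difference went from 0.62 ± 0.43 to 0.11. Sppl2b, a protease within membranes, went from 0.38 ± 0.18 to 0.17, Snrnp25, of the minor spliceosome, from 0.26 ± 0.12 to 0.13 and Cep85, of the centrosome, from 0.21 ± 0.09 to 0.11. On the same array the level of 12 erythroid markers was 2.98, against -0.56 to 0.49 on the other exposed arrays and -0.61 to -0.36 on the unexposed ones. The level of 27 genes of cell cycle and mitosis was 2.51 there and -0.38 to -0.10 on all others. The part of either in these results was not tested. Fewer cells of a type and less RNA per cell cannot be told apart in whole tissue.

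Combination 1 was the most extreme exposed array in 89 members (14 higher, 75 lower), and triptolide 2 the most extreme unexposed array in 83 (15 higher, 68 lower). The shares over all genes are not given here, so nothing particular to the members is read from these counts. Leaving out combination 1 lowered the difference by over 1.5 times in 16 members (5 higher, 11 lower). The arrays that came nearest to the other group were triptolide 1, in 66 lower and 14 higher members, and aspirin 2, in 44 lower and 7 higher members. The exposure groups parted by the least at Bet1, Abhd2 (0.0002) and Cep85 (0.00069). Just outside were Esyt1 and Ap2b1, each overlapping by 0.0004, and Ubqln1, by 0.0008. Only 6 members had further rows on the array, 7 in all. None of these rows parted the groups, and 5 had the sign of the row that did.

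The set depended on how the arrays were scaled. With each array centred on its median, 135 genes parted the groups, 14 higher and 121 lower, of which 66 were among the 158. With quantile normalization 140 did, 31 higher and 109 lower, of which 65 were among the 158. Under all of these scalings 36 members parted the groups, 4 higher and 32 lower. Of the genes described by name, these were Ctsg and Snrnp25 among the higher and Lrp2, Cxcl15, Epha7, Acot2, Serpinb6b, Cxcl16, Eps8, Mgat2, Gnai3, Calu, Tgoln1, Dusp4 and Ncbp2 among the lower. The aspirin differences of all 158 kept their sign under both scalings, at 0.56 to 1.47 times the reported size when centred and 0.22 to 1.43 times when quantile normalized.

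The 2 comparisons that make up the split, aspirin against control and the combination against triptolide, share no array. Members must have 1 sign in both, since complete separation requires it, and neither comparison is strict alone: 25.9% of autosomal genes do not overlap in the first and 17.9% in the second. The median difference of the lower members was -0.188 without and -0.254 with triptolide, and that of the higher members 0.163 and 0.197. It was larger in size with triptolide in 112 members (70.9%), beside 67.5% of all autosomal genes. For the interaction of the drugs 0 of 19938 genes passed (limma, smallest adjusted p 0.264), and 681 (3.42%) had an unadjusted p under 0.05. None of these was a member, and the rule, which requires separation in both comparisons, leaves little room for one. Over all autosomal genes these differences had 1 sign in 59.5% and a Pearson r of 0.181 across genes, which are not independent replicates.

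**Figure D3:**
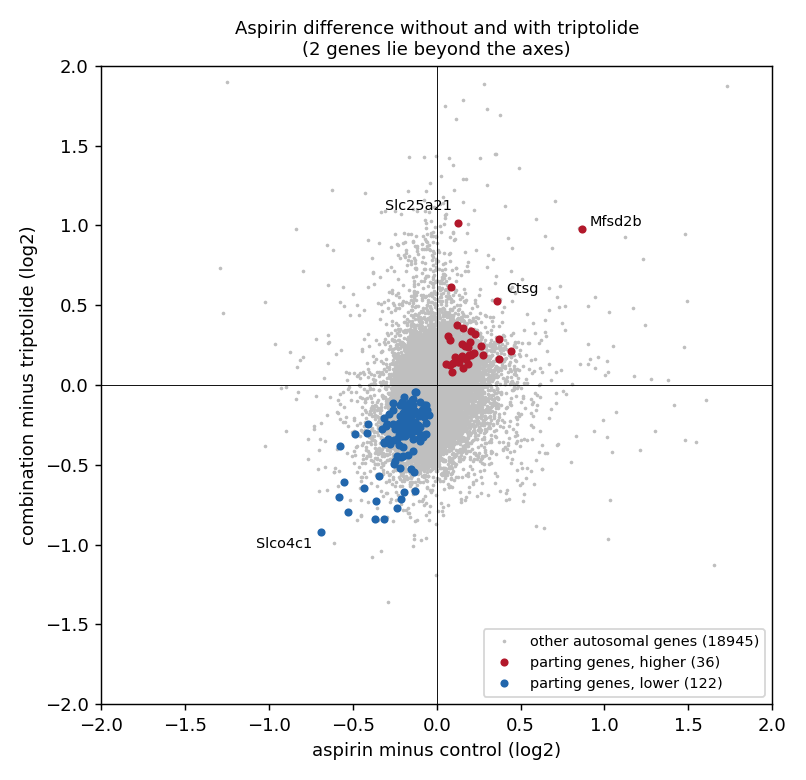
Each point is an autosomal gene, plotted by its log2 difference aspirin minus control (x) and combination minus triptolide (y), with parting genes in red (higher, 36) and blue (lower, 122). The members lie in 2 quadrants by construction, most of them within 0.5 of 0 on both axes, and many non-members lie as far out.

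The list of prostanoid synthesis, which covers the cyclooxygenase Ptgs2, the lipases and synthases around it and prostaglandin transport, held no member. Ptgs1, the other cyclooxygenase, was not among the 18 genes of the list that were measured, so nothing is said of it here. Ptgs2, the inducible cyclooxygenase, read 9.93 and 10.43 in the controls, 10.43, 10.25 and 10.37 with triptolide, 9.51, 10.68 and 9.79 with aspirin alone and 9.30, 10.06 and 10.11 with the combination. Its groups overlapped, and the difference of -0.37 ± 0.21 was -0.22 without combination 1 (limma, adjusted p = 0.473). Ptges, a prostaglandin E synthase, was at -0.36 ± 0.11 (limma, adjusted p = 0.386). Of the 18 genes of this list, 5 lay above and 13 below 0 with a median of -0.05, and 0 passed. The 9 prostanoid receptors had a median of 0 to 2 decimals, with 3 above and 6 below. The 15 genes of the lipoxygenase branch, with 8 above and 7 below, and the 22 genes of aspirin hydrolysis and salicylate conjugation, with 9 above and 13 below, held no member either. Members were 0.827% of autosomal genes, so lists this short would mostly hold none, and nothing is read from their absence. In the lipoxygenase list 1 higher and 3 lower genes had an unadjusted p under 0.05 (limma), beside 2.81% and 9.15% of all genes. Over all genes 10636 lay above and 9302 below 0.

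Markers of alveolar type 2 cells all lay lower with aspirin. All 16 genes of the list had a difference below 0, with a median of -0.36 (-0.19 without and -0.48 with triptolide) beside 0.012 over all genes. Of the 16, 11 had an unadjusted p under 0.05 (limma), beside 9.15% of all genes that had one and lay lower. None passed, and Hc and Cxcl15 parted the arrays. Markers of a cell type are not independent of each other, so such counts only describe the list. Lamp3, a lysosomal protein of lamellar bodies, was at -0.65 ± 0.23, Etv5, a transcription factor of these cells, at -0.59 ± 0.14, Napsa, a protease that processes surfactant protein, at -0.46 ± 0.15 and Lpcat1, which makes surfactant lipid, at -0.40 ± 0.11. The surfactant genes themselves differed less, with Sftpc at -0.14 ± 0.09 and Sftpb at -0.26 ± 0.13. Without combination 1 these were -0.06 and -0.13, and Lamp3 was at -0.44. The mean level of the list was 0.12 and 0.22 in the controls and 0.15, 0.47 and 0.05 with triptolide, against -0.16, 0.02 and 0.02 with aspirin alone and -0.75, -0.12 and -0.04 with the combination. This level parted the groups, as it did for no other of the 52 lists, but the unexposed and exposed arrays nearest to each other were only 0.05 and 0.02. It overlapped once the arrays were centred, or once Hc and Cxcl15 were left out (exposed -0.69 to 0.05, unexposed 0.04 to 0.44). Without combination 1 the median of the list was -0.22 and without triptolide 2 it was -0.28, with all 16 genes below 0 each time; these list values and those without Hc and Cxcl15 were added after the data were seen.

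**Figure D4:**
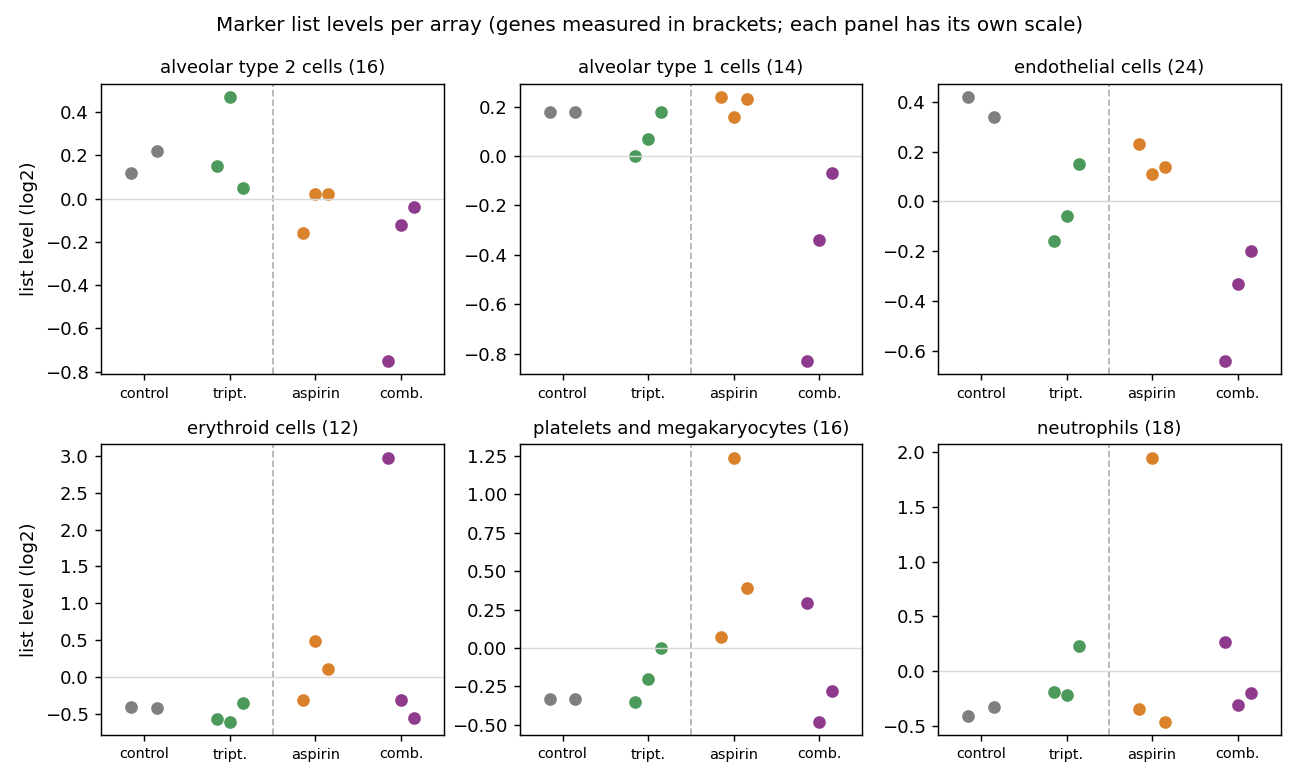
Each panel plots the level of a marker list (mean log2 level of its genes minus their mean over the 11 arrays) on each array, with unexposed groups left of the dashed line, aspirin-exposed groups right of it and the number of genes in brackets. Only the type 2 list keeps the groups apart; combination 1 is lowest in the alveolar and endothelial lists and highest in the erythroid list (2.98).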

How the data were processed

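The 11 arrays were grouped and numbered by their titles. The authors deposited 1 log2 value per row and array over 35556 rows. The submitters' processing notes name RMA and Partek, with settings and array build not given in the sources used. Array medians were 8.135 to 8.254. There are no detection calls, and precision is limited by the number of arrays.

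GEO's platform annotation named the rows: 21789 had 1 symbol, 1621 had several, and 12146 stayed unnamed here. Several rows named 999 genes, and the brightest by its mean was kept. Chromosomes came from the GRCm38.p6 RefSeq table. The model (R 4.3.3 with lmFit and eBayes of limma 3.58.1) held aspirin and triptolide exposure as additive factors over all 11 arrays. It had 8 residual degrees of freedom and no filter, and two-sided p-values were adjusted over 19938 genes by Benjamini-Hochberg. It was tested on simulated data.

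Members described by name were the 12 largest differences and the 8 widest gaps in each direction, members of a gene list and those at the edge of the rule; others named were chosen after their values were seen. The members and the lists (52, from general knowledge, 959 of 1042 symbols matched) were chosen with earlier results of these data known. Alternatives were other scalings, row choices, filters, covariates, moderation and each array left out. Some genes were not analysed here.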

Additional observations from a re-analysis of the deposited data

Results flagged for a closer look

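Among the named members and the main marker lists, 25 values lay apart from the rest of their exposure group by Dixon's criterion at its 95% critical value. Chance alone meets it in about 1 of 20 groups that were not selected. That rate does not hold here, because many of the genes were named for a large difference or gap. The 25 values are not independent either, since most were on combination 1. Lower members on that array were Cxcl15 at 12.06 (others 12.94 to 13.16), Hc at 10.35 (11.4 to 11.65), Lrp2 at 9.02 (9.85 to 10.03), Epha7 at 7.54 (8.0 to 8.14), Serpinb6b at 10.53 (11.09 to 11.3), Cxcl16 at 9.51 (9.98 to 10.22), Eps8 at 8.93 (9.32 to 9.46) and Gabarap at 12.56 (12.85 to 12.92). Higher members on it were Slc25a21 at 9.37 (6.53 to 6.64), Sppl2b at 11.3 (10.05 to 10.25), Snrnp25 at 9.23 (8.52 to 8.58), Cep85 at 8.14 (7.56 to 7.64), Ctsg at 7.74 (6.92 to 7.15), Fbxo34 at 9.65 (9.24 to 9.34) and U90926 at 6.57 (6.31 to 6.38).

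Triptolide 2 lay apart from the other unexposed arrays for Epha7 at 9.33 (8.23 to 8.41), Lrp2 at 10.95 (10.18 to 10.34), Dusp4 at 8.99 (8.47 to 8.53), Abhd2, a lipid hydrolase, at 12.01 (11.42 to 11.58) and Gabarap at 13.03 (12.92 to 12.94).

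List levels lay apart on combination 1 for cell cycle and mitosis at 2.51 (-0.38 to -0.12), erythroid cells at 2.98 (-0.56 to 0.49) and alveolar type 2 cells at -0.75 (-0.16 to 0.02). The neutrophil level lay apart on aspirin 2 at 1.95 (-0.46 to 0.27). The cardiac muscle level lay apart on triptolide 3 at 0.92 (-0.41 to -0.15).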

How the results depend on the processing

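Over 21 other settings the 41 named genes gave 854 differences, of which 0 reversed. Of these genes 37 are members, and complete separation fixes their sign in every fit with 1 array left out. The lack of reversals there follows from the rule and is no support for the members. The count of parting genes was 154 with the mean of a gene's rows, 141 without the dimmest 25% of genes, 167 with sex-linked and unplaced genes, 3 with a gap of at least 0.1 and 488 (119 of them among the 158) once the fitted triptolide effect was subtracted. It was 179 to 707 with 1 array left out, which can only add genes: 707 without triptolide 1, 584 without aspirin 2, 297 without combination 1, 285 without control 1, 270 without combination 3, 257 without aspirin 3 and 250 without triptolide 3.

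No gene passed the aspirin effect under any setting; the smallest adjusted p ran from 0.0764 without combination 3 to 0.683 without triptolide 2. For triptolide, the 1 call became 0 to 39 with 1 array left out (39 without triptolide 3, 1 without combination 1 and 0 without any other), 2 with a replicate block, 0 with no moderation, 335 with array weights and 5 with the Y-linked level as covariate. For the interaction, 0 calls became 0 to 6 with 1 array left out (6 without triptolide 1, 1 without combination 3).

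Same-numbered arrays of different groups correlated at -0.139 to 0.329 in their deviations (15 pairs, median 0.084; -0.068 for 30 other pairs). Not every pair exceeded 0.1 and the labels name no shared source, so the numbers were not taken to pair the arrays. Of the 11 arrays, 7 correlated best with their own number. Deviations cancel within a group, so the arrays do not count independently (aspirin 1 was at 0.322 with control 1 and -0.322 with control 2). Whether the arrays were paired is not known. With the replicate number as a block, 0 genes passed for aspirin (smallest adjusted p 0.172, 3357 unadjusted) and 0 for the interaction.

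With 2 controls and gaps of about 0.01, membership rests on single arrays. Absence of calls does not show that aspirin left these genes as they were; a difference of log2 0.25, as most members had or less, was rarely recovered in the simulation.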

Other observations

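Other cell types were read through marker lists, whose genes are described by counts and medians (those without 1 array were added after the data were seen); 0 of their genes passed for aspirin, and none of the lists given here holds a parting gene. All 24 endothelial markers lay below 0, with a median difference of -0.31, which was -0.15 without and -0.39 with triptolide. Without combination 1 the median was -0.22, with 2 above and 22 below 0. With all arrays 17 of the 24 had an unadjusted p under 0.05 (limma), beside 9.15% of all genes that had one and lay lower. Their level overlapped between the groups, at -0.64 to 0.23 on the exposed and -0.16 to 0.42 on the unexposed arrays. Among them Cdh5, the cadherin of endothelial junctions, was at -0.37 ± 0.10 and Pecam1 at -0.27 ± 0.09. All 14 markers of alveolar type 1 cells lay below 0 with a median of -0.26, which was 0.03 without and -0.48 with triptolide. Without combination 1 the median was -0.14, with 2 above and 12 below 0. Of 21 genes of fibroblasts and matrix, 20 lay below 0 with a median of -0.20, and -0.09 without combination 1.

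All 17 markers of ciliated cells lay above 0 with a median of 0.21, at 0.21 without and 0.20 with triptolide. Without combination 1 the median was 0.34 and all 17 stayed above 0. With all arrays 3 of them had an unadjusted p under 0.05 (limma), beside 2.81% of all genes that had one and lay higher. Their level ran from -0.30 to 0.50 on the exposed and from -0.44 to 0.17 on the unexposed arrays. Of 16 markers of platelets and megakaryocytes, 14 lay above 0 with a median of 0.33, which was 0.74 without and 0.07 with triptolide. Their level was highest on aspirin 2, at 1.24. Without aspirin 2, 12 markers lay above 0 with a median of 0.22, and without combination 1, 15 did with a median of 0.31. All 12 erythroid markers lay above 0 with a median of 0.89, which was 0.21 without combination 1. All 27 genes of cell cycle and mitosis lay above 0 with a median of 0.47, but 7 did, with a median of -0.07, without combination 1. Of 18 neutrophil markers 15 lay above 0 with a median of 0.34, but 7 did, with a median of -0.05, without aspirin 2.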
